A study of Danio rerio with 32 samples.

Results

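Whole zebrafish embryos exposed to all-trans retinoic acid were compared with whole zebrafish embryos exposed to valproic acid, to find which genes the 2 teratogens set apart. The comparison used the 8 libraries whose column names end in RA and the 8 whose names end in VPA, 16 of the 32 libraries of the series. The other 16 libraries, 8 of untreated control embryos and 8 of embryos given folic acid, the negative control of the design, were not contrasted here and served to place the levels of both teratogens. Embryos of all 4 groups were kept in Dutch standard water with 0.01% DMSO, and exposure lasted 4 h, from 3 to 7 h after fertilization. Polyadenylated RNA of whole embryos was sequenced. Neither the dose of any compound nor the zebrafish strain, the number of embryos in a library or what separates the replicates is given in the labels, so that p-values speak only of the spread among these libraries, possibly a technical one, and sizes of response are not compared at matched doses. Library titles are numbered, and each of the 4 runs of 12 numbers (1-12, 13-24, 25-36 and 37-48), called sets here, holds 2 libraries of every group. What a set stands for is not stated.

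Retinoic acid is a vitamin A derivative that binds nuclear receptors (RAR, partnered with RXR) sitting on response elements in the DNA. In the vertebrate gastrula it sets posterior identity in the neural plate, switching on Hox genes of the hindbrain and, in a feedback loop, the enzyme that destroys it. Valproic acid is an antiepileptic drug that inhibits class I and IIa histone deacetylases, enzymes that remove acetyl groups from histones. Both compounds cause malformations of the nervous system, and the series title names nervous system genes as the subject of the study.

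Values are normalized log2 expression levels, on which 1 unit is 2-fold, and differences are retinoic acid minus valproic acid with their SE from a limma fit that holds the set constant. Calls rest on an adjusted p below 0.05 over the whole table. Of 15710 genes, 5565 were called (35.4%), 2680 of them higher in retinoic acid embryos (17.1%) and 2885 higher in valproic acid embryos (18.4%). At least 2-fold apart were 647 genes higher in retinoic acid and 721 higher in valproic acid, counts that fell to 379 and 321 when genes with a mean log2 level under 5 were left out. The ranges of the 8 and 8 libraries did not overlap in 941 genes (5.99%). Fitted within a single set, 2 libraries against 2, the calls numbered 2280 in titles 1-12, 312 in 13-24, 1836 in 25-36 and 1156 in 37-48. The sign of the difference was the same in all 4 sets for 5036 of the 5565 called genes (90.5%), and each set alone gave the sign of the pooled value for 96.8% to 98.7% of them. These genes were called from the pooled fit, which holds all 4 sets, so a shared sign is partly built in and is no independent replication.

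**Figure D1:**
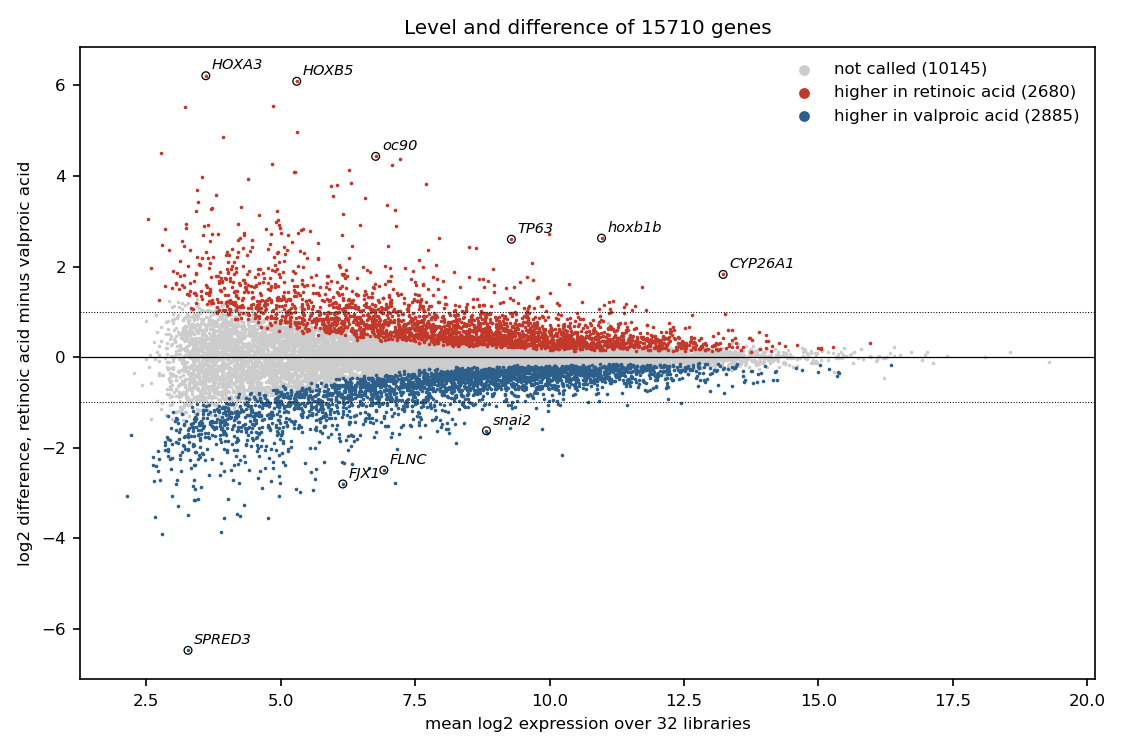
Mean log2 level over 32 libraries (x axis) against the log2 difference, retinoic acid minus valproic acid (y axis), for each of 15710 genes, with called genes in red (2680, higher in retinoic acid) and blue (2885, higher in valproic acid) and dotted lines at 2-fold. The largest differences belong to Hox genes on the retinoic acid side and to SPRED3 on the valproic acid side, and CYP26A1 and hoxb1b stand out among genes of high level.

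The first principal component of the 16 libraries, 27.5% of their variance, separated the 2 groups, with retinoic acid libraries at -47.5 to -26.6 and valproic acid libraries at 21.8 to 52.2. Retinoic acid replicate 3 stood apart from the other 7 libraries of its group in 1714 genes (10.9%), against 30 to 124 genes for each of the others, and valproic acid replicate 4 in 325. Without these 2 libraries 5568 genes were called, 2716 higher in retinoic acid and 2852 higher in valproic acid. An index of depth, the number of distinct values at or below the lower quartile, ran from 23 to 35 in retinoic acid libraries and from 19 to 53 in valproic acid libraries (exact permutation test, two-sided p = 0.314).

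Control embryos lay close to retinoic acid embryos in most of the genes that differed. On a scale with the valproic acid mean at 0 and the retinoic acid mean at 1, the control mean had a median position of 0.944 over the 5565 called genes, with quartiles of 0.735 and 1.13. The control was nearer to retinoic acid in 5031 of them (90.4%). Folic acid embryos, which were in no comparison used to choose the genes, were nearer to retinoic acid in 90.1%. Genes at least 2-fold higher in retinoic acid had the control at a median position of 0.817, and genes at least 2-fold higher in valproic acid at 0.887. Against control itself, 199 genes were called in retinoic acid embryos and 5836 in valproic acid embryos in the same fit, and 0 in folic acid embryos.

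**Figure D2:**
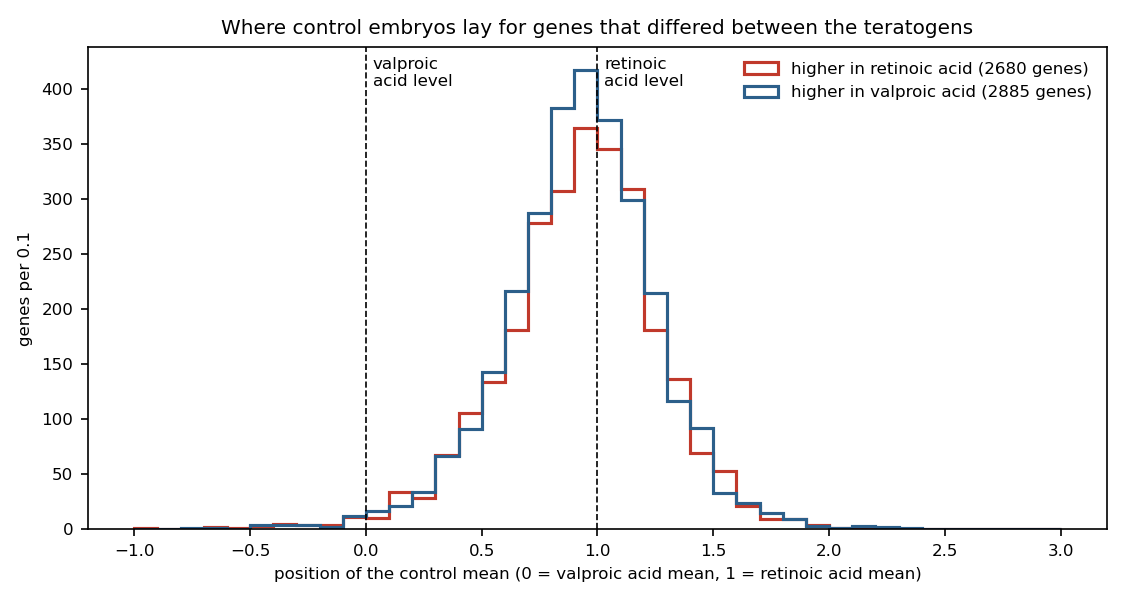
Number of genes (y axis) by the position of the control mean between the valproic acid mean (0) and the retinoic acid mean (1), for called genes higher in retinoic acid (red) and higher in valproic acid (blue), with 3 genes outside the plotted range. In both directions most genes peak near 1, the retinoic acid level.

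Genes that make, bind and destroy retinoic acid were called more often toward retinoic acid than toward valproic acid. Of 24 measured genes for the metabolism and reception of the ligand, 14 were higher in retinoic acid (58.3%, against 17.1% of all genes). In valproic acid 3 were higher (12.5%, against 18.4% of all genes, and 1 to 4 genes over the alternatives). The median difference was 0.70 against 0.01 over all genes. CYP26A1 (cyp26a1), the enzyme that clears retinoic acid by oxidation, had lowest, median and highest values of 14.37, 14.42 and 14.51 in the 8 retinoic acid libraries and 12.07, 12.69 and 12.88 in the 8 valproic acid libraries. The 2 groups lay well apart, and the retinoic acid libraries were tightly grouped. The difference was 1.83 (3.55-fold, SE 0.08, adjusted p = 3.35e-18), made up of 1.52 above control in retinoic acid (adjusted p = 1.01e-15) and -0.31 in valproic acid (adjusted p = 0.00199). DHRS3 (ENSDARG00000044803), the reductase that turns retinal back into retinol, had 12.46, 12.59 and 12.99 in retinoic acid and 10.71, 11.200 and 11.37 in valproic acid, a difference of 1.54 (SE 0.09, adjusted p = 2.43e-14). Its second entry (ENSDARG00000044982) had 7.1, 8.26 and 9.09 against 0.20, 1.9 and 5.61, with 4 valproic acid libraries at the lowest value of their library, so that its difference of 5.54 (SE 0.63) has no fold. No library of one group reached the other in either gene.

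Receptor and carrier genes of the pathway had the control on different sides. raraa, a retinoic acid receptor, had 10.57, 10.89 and 11.32 in retinoic acid and 9.19, 9.63 and 10.55 in valproic acid, a difference of 1.15 (SE 0.11), most of it a rise over control in retinoic acid (0.94, adjusted p = 1.48e-06, against -0.21 in valproic acid, adjusted p = 0.159). rxrbb, a partner receptor, was at 8.91 ± 0.26 in retinoic acid and 8.02 ± 0.34 in valproic acid (SD, n = 8 each), and here retinoic acid lay near the control mean (-0.09 from control, adjusted p = 0.876) and valproic acid -0.98 from it (adjusted p = 2.79e-08). rxrgb differed by 1.07 (SE 0.15), RDH8, a retinol dehydrogenase, by 1.34 (SE 0.18) and CYP26C1, a second clearing enzyme, by 1.82 (SE 0.25). CRABP2 (ENSDARG00000073978), which carries retinoic acid in the cell, had 5.26, 7.3 and 8.76 against 2.33, 4.11 and 7.44, and its groups overlapped (difference 2.8, SE 0.46, adjusted p = 1.43e-05). A second and far more abundant CRABP2 entry (ENSDARG00000030449, mean 14.1) differed by 0.35 (SE 0.09). That entry was called against control in neither group (adjusted p = 0.378 and 0.246). ALDH1A2, which oxidizes retinal to retinoic acid, went the other way, at 11.28, 11.62 and 11.82 in retinoic acid and 11.76, 12.07 and 12.28 in valproic acid, with overlapping groups (difference -0.46, SE 0.08, adjusted p = 2.26e-05), and the fall from control was in retinoic acid (-0.37, adjusted p = 0.00545, against 0.09 in valproic acid).

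**Figure D3:**
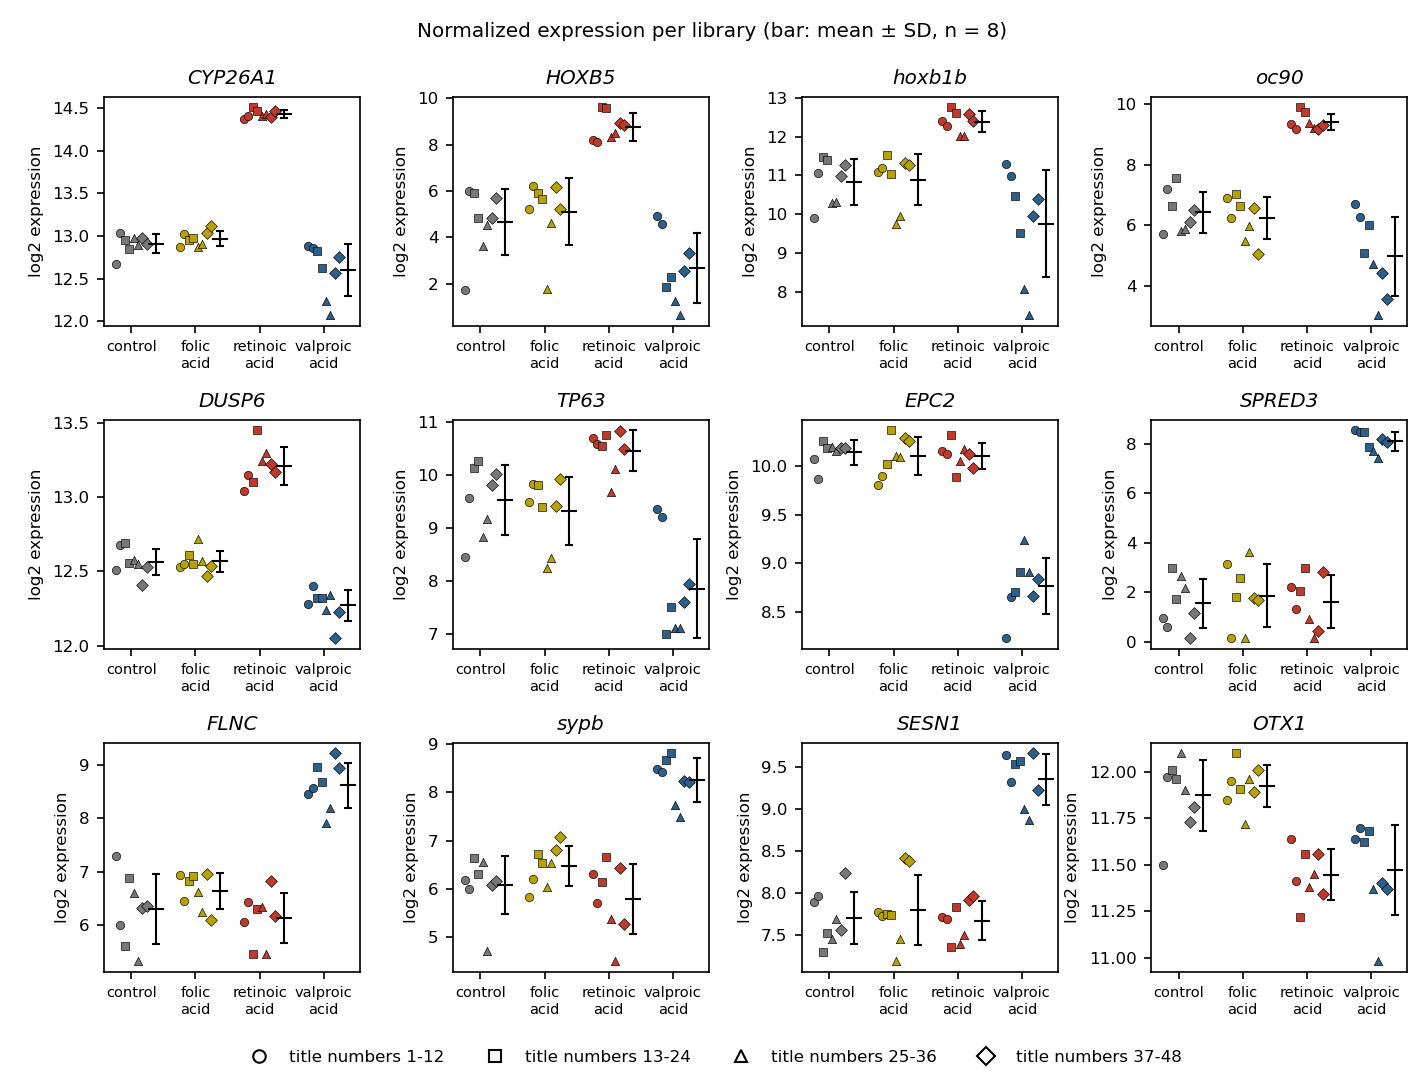
Normalized log2 level of 12 genes in each of 32 libraries (points, shaped by set), with the mean ± SD of each group of 8. CYP26A1, HOXB5 (ENSDARG00000054030), oc90 and DUSP6 are highest in retinoic acid and lowest in valproic acid, EPC2 is low and SPRED3, FLNC (ENSDARG00000018566), sypb and SESN1 are high in valproic acid libraries alone, and OTX1 is lower than control in both teratogens.

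Hox genes, transcription factors that give cells their place along the body axis, formed with Cdx genes the list with the largest median difference. All 25 measured Hox and Cdx genes were higher in retinoic acid (100%, against 17.1% of all genes) and 0 higher in valproic acid, with a median difference of 3.03. The medians against control were 1.37 in retinoic acid and -1.24 in valproic acid. The mean level of the list had lowest, median and highest values of 5.85, 7.56 and 8.02 in retinoic acid libraries, 3.69, 5.50 and 6.88 in control libraries and 2.28, 3.63 and 6.28 in valproic acid libraries. The ranges of retinoic acid and valproic acid overlapped over all sets. In 7 of the 25 genes taken singly they did not, against 941 of all 15710 genes (5.99%). In 20 of the 25 at least 1 valproic acid library was at its lowest value, so most of these differences have no fold. With genes of a mean level under 5 left out, 11 Hox and Cdx genes were tested, and all 11 were called higher in retinoic acid.

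Paralog groups 1 to 5, which mark the hindbrain and anterior trunk, held the widest gaps. HOXA3 had lowest, median and highest values of 7.45, 8.05 and 8.6 in retinoic acid and 0.64, 1.21 and 4.11 in valproic acid, with no overlap (difference 6.22, SE 0.55, adjusted p = 1.74e-10). Control embryos were already low in it, at 2.18 ± 1.43 (SD, n = 8), and valproic acid was -0.36 from them (adjusted p = 0.648). HOXB5 (ENSDARG00000054030) had 8.12, 8.68 and 9.61 against 0.64, 2.42 and 4.91 and a control mean of 4.66 ± 1.42, between the groups (difference 6.09, SE 0.52). hoxc1a differed by 4.86 (SE 0.43), HOXD4 by 4.51 (SE 0.58) and hoxb1a, a rhombomere gene, by 3.93 (SE 0.46), all with groups that did not overlap. hoxb1b, the earliest Hox gene of the zebrafish hindbrain, was well expressed in every library, with 12.01, 12.404 and 12.76 in retinoic acid, 9.9, 11.02 and 11.48 in control and 7.39, 10.17 and 11.29 in valproic acid. Its difference was 2.63 (6.18-fold, SE 0.26, adjusted p = 1.70e-09), the retinoic acid libraries being tightly grouped and the valproic acid libraries widely spread.

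Of 11 measured Hox genes of paralog groups 6 to 10, 7 were called below control in valproic acid with no call above control in retinoic acid. Of the others, 1 was called above control in retinoic acid alone and 3 were called in neither. Of 12 genes in groups 1 to 5, 5 had both calls, 1 the valproic acid call alone, 4 the retinoic acid call alone and 2 neither. Over all 15710 genes, 2923 were called below control in valproic acid and 147 above control in retinoic acid. The retinoic acid mean lay above control in every one of the 11 genes of groups 6 to 10, so a missing call does not show an unchanged level. HOXB9 had 5.22, 8.42 and 8.97 in retinoic acid and 0.64, 4.41 and 8.22 in valproic acid, with overlap (difference 3.53, SE 0.57), and was 0.83 from control in retinoic acid (adjusted p = 0.775) and -2.69 in valproic acid (adjusted p = 3.69e-04). HOXC8 was 0.80 from control in retinoic acid (adjusted p = 0.617) and -2.56 in valproic acid (adjusted p = 5.58e-06). HOXB8 showed 0.63 (adjusted p = 0.724) and -1.9 (adjusted p = 1.38e-04) in the same order. Of the Cdx genes, which act above the posterior Hox genes, cdx1a differed by 0.97 (SE 0.15) and cdx4 by 0.53 (SE 0.10). A second HOXC6 entry (ENSDARG00000101954) had the weakest call of the list, at 2.22 (SE 0.78, adjusted p = 0.0257), and it was lost without retinoic acid replicate 8 and without valproic acid replicate 3, 4 or 7.

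The size of the Hox difference was not the same in the 4 sets. The median over the 25 genes was 1.21 in titles 1-12, 4.32 in 13-24, 3.31 in 25-36 and 3.53 in 37-48, and 23 of the 25 genes had their smallest difference in titles 1-12. In that set the list's mean level was 6.12 in valproic acid, against 3.63, 2.61 and 3.74 in the other sets. Control libraries also differed between sets in this list, from 4.24 in titles 25-36 to 6.66 in 13-24. A limma F test for a difference between sets, over all genes, called 4 genes (0.0255%), while 1137 had an unadjusted p under 0.05. Among them were hoxb1b, with 1.2, 2.7, 4.29 and 2.33 in the 4 sets in order (adjusted p = 0.0066), hoxc3a, with 1.16, 5.3, 6.49 and 4.54 (adjusted p = 0.0267), and meis2b, which codes for a partner of Hox proteins, with 1.36, 2.61, 4.7 and 2.22 (adjusted p = 0.0066). The sign was the same in all 4 sets in these 3 genes, and the size was smallest in titles 1-12 and largest in 25-36. The median was also smallest in titles 1-12, at 0.51 against 0.93 to 1.21 for hindbrain and spinal cord genes and 0.17 against 0.60 to 0.63 for neural border and placode genes, but not for the BMP, FGF and Wnt lists. It was largest there, at 0.26 against -0.0109 to 0.0526, for Nodal and mesendoderm genes and, at 0.25 against 0.0957 to 0.24, for organizer genes. Lists outside patterning did likewise, among them yolk syncytial genes, smallest there (0.13 against 0.15 to 0.55). Maternal transcripts (0.39 against -0.18 to 0.10), germ cell genes (0.19 against -0.23 to -0.14) and acetyltransferase genes (0.33 against 0.15 to 0.18) were largest there. Anterior neural plate genes were smallest there (0.05 against 0.11 to 0.39). What differs between the sets was not tested.

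**Figure D4:**
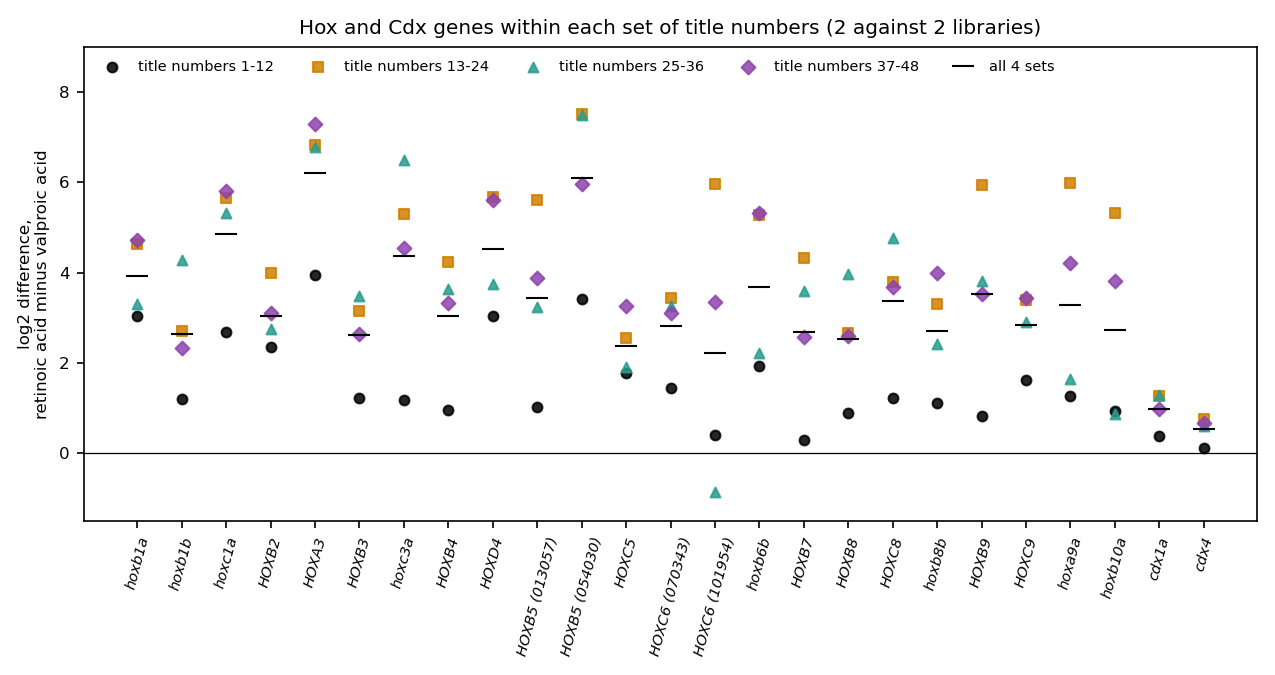
Log2 difference, retinoic acid minus valproic acid, of the 25 Hox and Cdx genes within each set of titles (points, 2 against 2 libraries) and over all sets (dashes), ordered by paralog group, with identifier endings where 2 entries share a name. Differences in titles 1-12 (black) are the smallest in 23 of 25 genes, and 1 HOXC6 entry is below 0 in titles 25-36.

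Hindbrain and spinal cord patterning genes outside the Hox clusters followed, with a median of 1.03: 20 of 30 were higher in retinoic acid (66.7%, against 17.1% of all genes). In valproic acid 2 were higher (6.7%, against 18.4% of all genes), and 1 without any 1 of retinoic acid replicates 2, 6 and 7 or valproic acid replicates 4 and 8. meis2b had 10.92, 11.27 and 11.57 against 6.1, 9.06 and 10.16 (difference 2.72, SE 0.29), and MEIS1 differed by 1.42 (SE 0.12). ZNF503 and ZNF703, zinc finger repressors of the hindbrain, differed by 1.11 (SE 0.10) and 1.05 (SE 0.11). TSHZ3, a zinc finger factor of the teashirt family, was at 8.76, 9.27 and 9.62 in retinoic acid, 6.8, 7.4 and 7.62 in control and 7.23, 7.49 and 7.8 in valproic acid, so that retinoic acid libraries alone stood out (difference 1.76, SE 0.13, and 0.11 between valproic acid and control, adjusted p = 0.524).

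PHOX2A, MNX1 and OLIG2 of that list were called below control in valproic acid. None of the 3 was called against control in retinoic acid. PHOX2A, a factor of hindbrain motor and autonomic neurons, had 8.29 ± 0.58 in retinoic acid, 8.38 ± 0.41 in control and 6.56 ± 1.01 in valproic acid (SD, n = 8 each), with -1.83 between valproic acid and control (adjusted p = 1.76e-06). MNX1, a motor neuron factor, was -2.33 from control in valproic acid (adjusted p = 2.00e-04) and 0.90 in retinoic acid (adjusted p = 0.648). OLIG2, which marks motor neuron and oligodendrocyte progenitors, had 6.19, 7.68 and 8.04 in retinoic acid and 1.08, 3.15 and 6.8 in valproic acid, with overlap (difference 3.79, SE 0.48). PAX8, a factor of the midbrain-hindbrain boundary, ear and kidney, had 7.79, 9.0 and 9.44 against 3.24, 5.57 and 7.45 without overlap (difference 3.24, SE 0.35), with the control at 7.08 ± 0.93 between them. Retinoic acid was 1.72 from control (adjusted p = 0.00391) and valproic acid -1.52 from it (adjusted p = 8.75e-04).

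The anterior neural plate and midbrain list was divided. Of 23 genes, 8 were higher in retinoic acid (34.8%, against 17.1% of all genes), 4 higher in valproic acid (17.4%, against 18.4%) and 11 were not called. The median was 0.21, and the medians against control were -0.33 in retinoic acid and -0.50 in valproic acid. OTX1, a forebrain and midbrain factor, had 11.22, 11.43 and 11.64 in retinoic acid, 10.98, 11.51 and 11.695 in valproic acid and 11.500, 11.93 and 12.101 in control. The 2 teratogens overlapped throughout, and the 95% confidence interval of their difference was -0.20 to 0.15 (adjusted p = 0.844), while retinoic acid was -0.43 (adjusted p = 0.00294) and valproic acid -0.40 (adjusted p = 3.54e-04) from control. otx2a gave an interval of -0.15 to 0.12 between the teratogens (adjusted p = 0.899), with -0.39 and -0.38 from control (adjusted p = 2.48e-04 and 2.46e-05). OTX2 (ENSDARG00000011235) differed from these, being higher in retinoic acid by 0.28 (SE 0.11, adjusted p = 0.0423). It was -0.08 from control in retinoic acid (adjusted p = 0.878) and -0.36 in valproic acid (adjusted p = 0.00838). In other members the control lay in different places. rx3, the eye-field factor, had 8.51, 9.49 and 9.76 against 4.3, 7.28 and 8.78 (difference 2.43, SE 0.32), with -1.95 between valproic acid and control (adjusted p = 1.42e-05). SFRP5, a secreted Wnt inhibitor, differed by 1.95 (SE 0.37) and was -2.47 from control in valproic acid (adjusted p = 3.37e-06). ZIC1, a factor of the dorsal neural plate, differed by 1.77 (SE 0.17), made up of 1.03 in retinoic acid (adjusted p = 2.67e-04) and -0.74 in valproic acid (adjusted p = 8.36e-04). lhx5, a forebrain factor, was lower in retinoic acid (-0.41, SE 0.11, adjusted p = 0.00316), having fallen from control there (-0.57, adjusted p = 0.00176).

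Among 36 genes of neural progenitors and neurogenesis, 18 were higher in retinoic acid (50%, against 17.1% of all genes) and 6 higher in valproic acid (16.7%, against 18.4%). The median was 0.34. HES6 (ENSDARG00000007097), a Hairy-related factor of early neurogenesis, had 7.54, 8.25 and 8.51 in retinoic acid and 3.64, 4.25 and 6.3 in valproic acid, without overlap (difference 3.55, SE 0.32). neurog1, the proneural factor that starts neuron formation, had 6.46, 7.76 and 8.68 against 3.66, 5.1 and 6.71 with overlap (difference 2.45, SE 0.34), and was 1.33 above control in retinoic acid (adjusted p = 0.0363) and -1.11 from it in valproic acid (adjusted p = 0.00954). olig4 differed by 1.88 (SE 0.19), her8a by 0.72 (SE 0.06) and ISL1, a factor of the first sensory and motor neurons, by 2.93 (SE 0.35), the last through low valproic acid values (-2.51 from control, adjusted p = 1.31e-06). Progenitor genes of the SoxB1 family did not move as 1: sox19b was higher in retinoic acid by 0.80 (SE 0.07) and SOX3 by 0.26 (SE 0.05), while SOX2 was lower by 0.51 (SE 0.07), with 10.97, 11.06 and 11.36 in retinoic acid, 11.401, 11.62 and 11.78 in valproic acid and 11.31, 11.61 and 11.94 in control.

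A few neuronal genes were above control in both groups. ELAVL3, an RNA-binding protein of new neurons, was 2.02 above control in retinoic acid (adjusted p = 3.94e-06) and 1.1 above in valproic acid (adjusted p = 0.00105), and INSM1, a zinc finger factor of endocrine and neural precursors, 1.62 and 0.89 (adjusted p = 6.54e-06 and 0.00131). The groups overlapped in both genes, and the difference between the teratogens was 0.92 (SE 0.26, adjusted p = 0.00531) for ELAVL3 and 0.73 (SE 0.21, adjusted p = 0.00705) for INSM1. MYT1, a zinc finger factor of neuronal precursors, was higher in valproic acid by 0.82 (SE 0.15), with 6.96, 7.59 and 7.68 in retinoic acid against 7.93, 8.25 and 8.65 and a control mean of 6.98 ± 0.31. DLD, a Delta ligand of Notch, was higher in valproic acid by 0.49 (SE 0.08).

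Of 27 genes of the neural border, crest and placodes, 14 were higher in retinoic acid (51.9%, against 17.1% of all genes) and 2 higher in valproic acid (7.4%, against 18.4%). The median was 0.59. TP63, the master factor of the epidermis and not a member of this list, had 9.67, 10.57 and 10.82 in retinoic acid and 7.0, 7.55 and 9.36 in valproic acid (difference 2.6, 6.08-fold, SE 0.24, adjusted p = 5.33e-10). The groups did not overlap, but the 2 valproic acid libraries of titles 1-12 came close, and the difference in the 4 sets in order was 1.36, 3.39, 2.78 and 2.89. foxi1, a factor of otic and epidermal precursors, differed by 0.88 (SE 0.07), six4b, a placode factor, by 1.02 (SE 0.10), DLX3 by 1.19 (SE 0.19) and PAX3 (ENSDARG00000010192), a neural border factor, by 2.46 (SE 0.37). oc90, a member of this list, codes for a protein of the otoconia of the ear. It had the largest difference of the named genes with a mean in the upper 75% and the same sign in all sets. Its values were 9.19, 9.34 and 9.91 in retinoic acid, 5.72, 6.31 and 7.56 in control and 3.03, 4.9 and 6.71 in valproic acid (difference 4.43, 21.6-fold, SE 0.30, adjusted p = 3.24e-13). snai2, a crest and mesenchyme repressor, went the other way without overlap, at 7.51, 8.38 and 8.76 in retinoic acid and 9.04, 9.78 and 10.59 in valproic acid (difference -1.63, SE 0.18, and 1.18 above control in valproic acid, adjusted p = 6.19e-06).

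In the BMP, FGF and Wnt lists, signalling pathways of the gastrula, more genes were higher in retinoic acid than in valproic acid. The medians against control in these lists were 0.09, -0.0008 and -0.06 in retinoic acid. In valproic acid they were -0.20, -0.22 and -0.25, further from control. In the BMP list, the ventral signal, 18 of 36 genes were higher in retinoic acid (50%, against 17.1% of all genes). In valproic acid 5 were higher (13.9%, against 18.4% of all genes), and 3 without retinoic acid replicate 1. The median was 0.26. szl, a secreted protein of the ventral side that limits chordin breakdown, had 9.31, 9.72 and 10.24 in retinoic acid and 7.34, 8.61 and 8.78 in valproic acid, without overlap (difference 1.27, SE 0.14). FST, which binds activins and BMPs, differed by 2.4 (SE 0.36) with overlap, the inhibitory SMAD6 (ENSDARG00000031763) by 1.16 (SE 0.14), GATA2, a ventral target, by 0.72 (SE 0.07) and the ligand BMP2 by 0.55 (SE 0.08). chrd, the dorsal BMP antagonist, was higher in valproic acid, at 13.11, 13.51 and 13.75 against 13.44, 13.804 and 14.07 with overlap (difference -0.30, SE 0.09, adjusted p = 0.00769). The fall from control was in retinoic acid (-0.37, adjusted p = 0.021, against -0.07 in valproic acid, adjusted p = 0.576).

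In the FGF and MAPK list, 14 of 34 genes were higher in retinoic acid (41.2%, against 17.1% of all genes) and 4 higher in valproic acid (11.8%, against 18.4%). The median was 0.21. FGF8, a ligand of the midbrain-hindbrain boundary and the margin, had 10.95, 11.21 and 11.33 in retinoic acid and 10.26, 10.44 and 10.55 in valproic acid, without overlap (difference 0.75, SE 0.08). DUSP6, the phosphatase that FGF signalling induces as its own brake, had 13.04, 13.196 and 13.45, 12.41, 12.56 and 12.69 in control and 12.05, 12.299 and 12.404, 3 separate ranges (difference 0.94, 1.91-fold, SE 0.05, adjusted p = 1.26e-14). The receptor fgfr4 differed by 0.59 (SE 0.06), retinoic acid replicate 3 being apart from the other 7 libraries of its group. In the same list was SPRED3, a relative of the Sprouty inhibitors of Ras signalling and the gene with the largest difference in favour of valproic acid of all 15710. It had 0.17, 1.67 and 2.97 in retinoic acid, 0.17, 1.45 and 2.96 in control and 7.43, 8.13 and 8.54 in valproic acid. Retinoic acid and control libraries were at or near the lowest values of the scale and every valproic acid library was above 7, so the difference of -6.47 (SE 0.49, adjusted p = 6.02e-12) has no fold.

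In the Wnt list, 18 of 45 genes were higher in retinoic acid (40%, against 17.1% of all genes) and 1 higher in valproic acid (2.2%, against 18.4%). The median was 0.15. PRICKLE1 (ENSDARG00000045694), of the planar cell polarity branch that moves cells during gastrulation, had 10.51, 10.56 and 10.82 against 9.16, 9.71 and 10.12 (difference 0.93, SE 0.08), and sp5l, a target of Wnt signalling at the margin, had 14.15, 14.19 and 14.51 against 13.57, 13.67 and 13.83 (difference 0.55, SE 0.05). Neither pair of groups overlapped. The ligand WNT3A differed by 1.62 (SE 0.36). The 1 gene higher in valproic acid was ctnnb2, a beta-catenin (-0.33, SE 0.07, adjusted p = 2.93e-04).

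Mesoderm and endoderm genes were split between the groups. Of 44 genes of Nodal signalling and mesendoderm, 17 were higher in retinoic acid (38.6%, against 17.1% of all genes). In valproic acid 10 were higher (22.7%, against 18.4% of all genes), and 6 without valproic acid replicate 4. The median was 0.06. SOX17, the endoderm factor, had 9.28, 9.43 and 9.7 in retinoic acid, 9.4, 9.66 and 9.87 in control and 8.31, 8.49 and 8.87 in valproic acid, the last apart from both (difference 0.91, 1.88-fold, SE 0.08). MYF5, the first muscle factor, differed by 1.13 (SE 0.16) and tbx6, of the paraxial mesoderm, by 1.22 (SE 0.21), both with overlapping groups. FSCN1, an actin bundler of endoderm and mesoderm cells, was higher in valproic acid by 0.49 (SE 0.07). tbxta, the zebrafish no-tail Brachyury gene, was at 12.65 ± 0.18 in retinoic acid and 12.86 ± 0.34 in valproic acid (SD, n = 8 each), a difference of -0.21 (95% confidence interval -0.39 to -0.04, adjusted p = 0.0484) that kept its call in 9 of 27 other settings. The second Brachyury entry, TBXT (ENSDARG00000039806), was lower in retinoic acid by 0.66 (SE 0.15), having fallen from control there (-0.94, adjusted p = 2.19e-04). In the organizer and notochord list, 11 of 25 genes were higher in retinoic acid (44%, against 17.1% of all genes) and 3 higher in valproic acid (12%, against 18.4%). Among the 11 were SHH (ENSDARG00000038867), the midline signal (1.13, SE 0.21), COL2A1 (ENSDARG00000011407), a collagen of the notochord sheath (1.13, SE 0.20), and ctslb, a cathepsin of the hatching gland (2.32, SE 0.40).

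Of 52 genes of histone acetyltransferase complexes, 22 were higher in retinoic acid (42.3%, against 17.1% of all genes) and 3 higher in valproic acid (5.8%, against 18.4%). The median was 0.21. The medians against control were -0.01 in retinoic acid and -0.24 in valproic acid. EPC2 and EPC1, scaffold proteins of the NuA4 acetyltransferase complex, led them. EPC2 had 9.89, 10.12 and 10.32 in retinoic acid, 9.86, 10.19 and 10.26 in control and 8.22, 8.77 and 9.24 in valproic acid, so that valproic acid libraries alone were low (difference 1.34, 2.53-fold, SE 0.09, adjusted p = 1.38e-13). EPC1 (ENSDARG00000060054) had 10.76, 11.18 and 11.39, 11.16, 11.21 and 11.35 and 9.78, 10.11 and 10.35 in the same order (difference 1.07, SE 0.07). kansl1a, of the NSL complex, differed by 0.67 (SE 0.07), and the acetyltransferase CREBBP by 0.46 (SE 0.07) and 0.43 (SE 0.10) in its 2 entries. In EPC1, kansl1a and both CREBBP entries retinoic acid replicate 3 was the lowest of its group and apart from it, and the calls held without it. TAF6L, of the SAGA complex, and kat7a, an acetyltransferase of the HBO1 complex, were higher in valproic acid by 0.66 (SE 0.09) and 0.73 (SE 0.16). The more abundant KAT7 (ENSDARG00000031770, mean 11.6, against 7.04 for kat7a) was called the other way, higher in retinoic acid by 0.23 (SE 0.07, adjusted p = 0.0123). It was -0.27 from control in valproic acid (adjusted p = 0.00316).

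Histone deacetylase and corepressor genes were called in both directions. Of 45, 8 were higher in retinoic acid (17.8%, against 17.1% of all genes) and 12 higher in valproic acid (26.7%, against 18.4%), with a median of 0.05. HDAC1, a deacetylase that valproic acid inhibits, had 14.34, 14.53 and 14.77 in retinoic acid and 14.47, 14.55 and 14.597 in valproic acid, overlapping, with a 95% confidence interval of the difference of -0.10 to 0.10 (adjusted p = 0.968). RCOR1, a corepressor of the LSD1 complex, was higher in valproic acid by 0.46 (SE 0.07) and hdac7b, a class IIa deacetylase of low level, by 1.65 (SE 0.46), whereas SIRT1, a deacetylase of another class, and mier1a, which recruits deacetylases, were higher in retinoic acid by 0.55 (SE 0.08) and 0.40 (SE 0.07). Among 35 Polycomb and DNA methylation genes 7 were higher in retinoic acid and 5 higher in valproic acid, 34.3% called against 35.4% of all genes. phc1, of the PRC1 complex, was higher in valproic acid without overlap, at 10.56, 10.71 and 10.88 against 11.06, 11.22 and 11.29 (difference -0.48, SE 0.06), and PCGF1 was lower there by 1.19 (SE 0.18).

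Synaptic vesicle and secretory genes were the list that lay furthest toward valproic acid. Of 20 measured, 11 were higher in valproic acid (55%, against 18.4% of all genes) and 2 higher in retinoic acid (10%, against 17.1%). The median was -0.78, and the medians against control were 0.03 in retinoic acid and 0.69 in valproic acid. sypb, a synaptophysin of the vesicle membrane, had 4.5, 5.92 and 6.66 in retinoic acid, 4.72, 6.18 and 6.65 in control and 7.49, 8.32 and 8.81 in valproic acid, without overlap (difference -2.46, 5.49-fold, SE 0.22, adjusted p = 1.55e-10). syn1, a synapsin, differed by -1.95 (SE 0.27), SYPL2 (ENSDARG00000000690), a synaptophysin relative, by -1.14 (SE 0.09), SCG3, a secretogranin of dense-core granules, by -1.67 (SE 0.20) and ATP6V1B2 (ENSDARG00000043465), a proton pump subunit, by -1.78 (SE 0.19). The groups did not overlap in any of these 5 genes. Second entries of SYPL2 (ENSDARG00000055307, -0.31, SE 0.14) and ATP6V1B2 (ENSDARG00000013443, 0.08, SE 0.09) were not called. With genes of a mean level under 5 left out, the median of the list was -0.48.

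Genes of the cytoskeleton, junctions and signalling were among the 12 largest differences toward valproic acid. These were counted over called genes with a mean level in the upper 75% of all genes and the same sign in all 4 sets. FJX1, a secreted four-jointed relative, had 4.17, 5.21 and 6.09 in retinoic acid and 7.41, 8.0 and 8.3 in valproic acid (difference -2.8, SE 0.27). JAM3 (ENSDARG00000114589), a junctional adhesion molecule, had 3.92, 4.58 and 5.45 against 6.91, 7.34 and 7.79 (difference -2.69, SE 0.25), and FLNC (ENSDARG00000018566), a filamin that crosslinks actin, 5.45, 6.23 and 6.82 against 7.92, 8.63 and 9.22 (difference -2.49, 5.63-fold, SE 0.22). No library of one group reached the other in any of the 3. A second FLNC entry (ENSDARG00000018820) was called the other way, higher in retinoic acid by 1.02 (SE 0.32, adjusted p = 0.0131), with overlapping groups. It was -1.22 from control in valproic acid (adjusted p = 0.00319). tiam2b, an activator of Rac, differed by -2.35 (SE 0.26), vamp5, a SNARE protein of vesicle fusion, by -2.34 (SE 0.23), the kinase FYN by -2.32 (SE 0.26), the calcium channel ITPR1 (ENSDARG00000014655) by -2.31 (SE 0.24) and the choline transporter-like SLC44A2 (ENSDARG00000037059) by -2.05 (SE 0.24). NAT16, an acetyltransferase of amino acids, at -2.03 (SE 0.20), and the orphan receptor GPR19, at -2.01 (SE 0.26), completed that group with sypb and syn1. Retinoic acid libraries lay near the control mean in FLNC (ENSDARG00000018566, -0.17 from control, adjusted p = 0.878) and ITPR1 (0.01, adjusted p = 0.997), and valproic acid libraries 2.32 and 2.32 above it. Over the whole list of 39 actin crosslinker and junction genes, 12 were higher in valproic acid (30.8%, against 18.4% of all genes) and 4 higher in retinoic acid (10.3%, against 17.1%). Among the 12 were ACTN1, an actinin (-1.76, SE 0.28), and CNN3 (ENSDARG00000029856), a calponin (-0.46, SE 0.06). A second CNN3 entry (ENSDARG00000099510) was not called (0.12, SE 0.06).

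The control mean lay between the means of the teratogens in 3181 of the 5565 called genes (57.2%). The genes named here were picked because the control lay between the teratogens in every set. They were ranked by the smaller of the differences from control, so calls on both sides are partly built in. HAPLN1, a link protein of the hyaluronan matrix, had 8.34, 8.97 and 9.33 in retinoic acid, 6.51, 7.52 and 8.1 in control and 1.24, 4.96 and 6.76 in valproic acid, and was 1.53 (adjusted p = 0.032) and -2.7 (adjusted p = 1.61e-06) from control. hephl1a, a copper-dependent ferroxidase, had 9.27, 9.86 and 10.23, 7.19, 7.54 and 8.11 and 4.5, 6.19 and 6.96, 3 separate ranges, with 2.23 (adjusted p = 2.84e-08) and -1.6 (adjusted p = 1.16e-06). grin3ba, an NMDA receptor subunit, showed 2.1 and -1.75, ugt5g1, a glucuronosyltransferase, 1.89 and -1.27, VASN (ENSDARG00000099266), which binds transforming growth factor beta, 1.02 and -0.96, and ccndx, a cyclin of the D type, 1.72 and -2.41, in retinoic acid and valproic acid respectively, all called in both. Of such genes higher in valproic acid, NPR3, the natriuretic peptide clearance receptor, had 6.34, 6.72 and 7.45 in retinoic acid, 7.3, 7.56 and 7.74 in control and 7.66, 8.27 and 8.65 in valproic acid (difference -1.49, SE 0.14), with -0.79 (adjusted p = 4.33e-04) and 0.70 (adjusted p = 1.30e-04) from control. SALL3, a zinc finger factor, showed -0.65 (adjusted p = 0.0461) and 0.87 (adjusted p = 1.53e-04), and for COL1A2, a fibrillar collagen, and gabrb1, a GABA receptor subunit, the part from retinoic acid to control, at -0.61 and -0.71, was not called (adjusted p = 0.274 and 0.362).

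Metabolic genes were divided. Of 43 genes of fatty acid oxidation and ketones, 14 were higher in valproic acid (32.6%, against 18.4% of all genes) and 9 higher in retinoic acid (20.9%, against 17.1%). The median was -0.08. ACSS2, which makes acetyl-CoA from acetate, had 9.91, 10.12 and 10.302 in retinoic acid and 10.62, 10.85 and 11.003 in valproic acid, without overlap (difference -0.72, SE 0.07), and PDK2, which shuts the entry of pyruvate into the citric acid cycle, 2.67, 4.67 and 5.74 against 6.11, 6.76 and 7.0 (difference -2.23, SE 0.42). ACAT1, an acetoacetyl-CoA thiolase, and ACSL1, which activates long-chain fatty acids, were higher in valproic acid by 1.06 (SE 0.12) and 1.08 (SE 0.13). Other ACSL genes did not all follow: acsl1b (mean 10.3, against 7.86 for ACSL1) and ACSL5 were higher in retinoic acid by 0.51 (SE 0.16) and 1.11 (SE 0.18). The 2 ACSL4 entries were called in opposite directions (ENSDARG00000004078, 0.62, SE 0.15, and ENSDARG00000010752, -0.48, SE 0.13). SLC25A20, the carnitine carrier of the mitochondrion, and hadhaa, of the trifunctional protein of beta-oxidation, were higher in retinoic acid by 0.59 (SE 0.08) and 0.74 (SE 0.11).

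Of 38 folate and one-carbon genes, 12 were higher in valproic acid (31.6%, against 18.4% of all genes) and 9 higher in retinoic acid (23.7%, against 17.1%). The serine synthesis enzymes PHGDH and PSAT1 were higher in valproic acid by 0.53 (SE 0.08) and 0.72 (SE 0.10), as were SHMT1, which passes the carbon of serine to folate (0.44, SE 0.08), the mitochondrial folate carrier SLC25A32 (ENSDARG00000089791, 0.63, SE 0.09), AHCY, of the methionine cycle (0.51, SE 0.06), and cbsb, which drains homocysteine from it (0.64, SE 0.08). AHCYL1, a relative of AHCY, and GGH, which trims the glutamate tail of folates, were higher in retinoic acid by 1.32 (SE 0.21) and 1.28 (SE 0.17). In AHCYL1 the change from control was in retinoic acid (1.16, adjusted p = 6.43e-04) and in GGH in valproic acid (-0.91, adjusted p = 9.43e-05).

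Of 27 genes of the p53 and growth arrest list, 33.3% were called, against 35.4% of all genes. Of the 27, 8 were higher in valproic acid (29.6%, against 18.4% of all genes) and 1 higher in retinoic acid (3.7%, against 17.1%). SESN1, a sestrin that restrains growth signalling, had 7.35, 7.7 and 7.96 in retinoic acid, 7.29, 7.62 and 8.23 in control and 8.86, 9.42 and 9.66 in valproic acid, the last apart from both (difference -1.68, 3.21-fold, SE 0.12, adjusted p = 1.71e-12). sesn2 differed by -0.90 (SE 0.11) and CCNG1, a cyclin that p53 induces, by -0.34 (SE 0.07). The p53 targets cdkn1a, a cyclin kinase inhibitor, and mdm2, the ligase that degrades p53, were not called, with 95% confidence intervals of -0.38 to 0.74 (adjusted p = 0.648) and -0.11 to 0.30 (adjusted p = 0.502). Of 48 stress genes, 11 were higher in valproic acid (22.9%, against 18.4% of all genes) and 9 higher in retinoic acid (18.8%, against 17.1%), shares near those of all genes. Among the 11 were PDIA4, a protein folding enzyme of the endoplasmic reticulum (1.08, SE 0.11), ASNS, the asparagine synthetase of the amino acid response (1.09, SE 0.14), and the mitochondrial chaperones HSPE1 (0.71, SE 0.09) and HSPD1 (0.42, SE 0.07). Among the 9 higher in retinoic acid were atf4b (0.32, SE 0.07), XBP1 (0.29, SE 0.07), DDIT3 (0.42, SE 0.15) and CHAC1 (0.30, SE 0.09). Stress genes were thus called in both directions.

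Of 17 xenobiotic genes, 7 were higher in retinoic acid (41.2%, against 17.1% of all genes) and 1 higher in valproic acid (5.9%, against 18.4%). The median was 0.32. tiparp, a target of the aryl hydrocarbon receptor, had 12.01, 12.23 and 12.31 in retinoic acid, 11.45, 11.57 and 11.72 in control and 10.84, 11.03 and 11.35 in valproic acid, 3 separate ranges (difference 1.13, SE 0.07, adjusted p = 2.95e-14). cyp2aa2, a cytochrome P450, differed by 0.80 (SE 0.10) and abcc2, an export pump, by 1.54 (SE 0.31). Of 26 sterol and fatty acid synthesis genes, 5 were higher in retinoic acid (19.2%, against 17.1% of all genes) and 7 higher in valproic acid (26.9%, against 18.4%). ldlrb, a receptor for lipoproteins, had 9.06, 9.77 and 10.04 in retinoic acid, 8.73, 9.18 and 9.54 in control and 7.58, 7.82 and 8.0 in valproic acid, the last apart from both (difference 1.94, 3.83-fold, SE 0.12). HMGCS1, an early enzyme of cholesterol synthesis, differed by 0.71 (SE 0.08) and insig1, the sterol sensor that retains SREBP, by 0.69 (SE 0.13), whereas SCD, the stearoyl desaturase, was higher in valproic acid by 2.05 (SE 0.49).

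**Figure D5:**
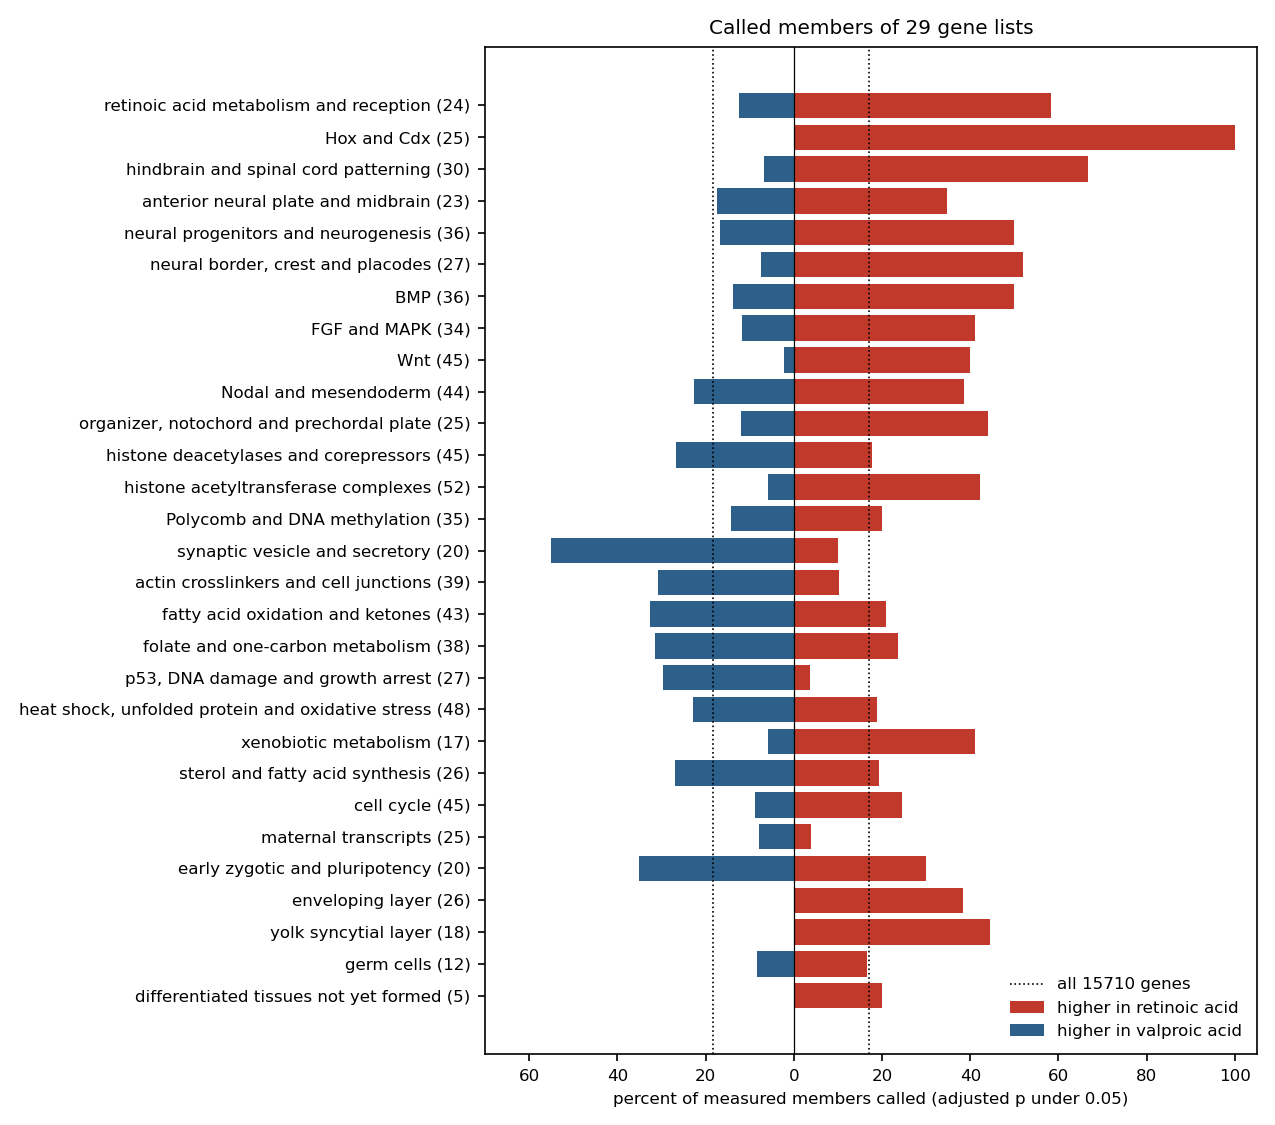
Percent of the measured members (number in brackets) of 29 gene lists called higher in retinoic acid (red, to the right) or in valproic acid (blue, to the left), with dotted lines at the shares of all genes, 17.1% and 18.4%. Hox and Cdx genes reach 100% on the retinoic acid side, and the synaptic and secretory list reaches furthest on the valproic acid side.

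Some markers of extraembryonic layers differed between the teratogens, and most were not called. Of 26 genes of the enveloping layer, the outer covering of the gastrula, 10 were higher in retinoic acid (38.5%, against 17.1% of all genes). In valproic acid 0 were higher. The mean level of the list ran from 11.03 to 11.62 in retinoic acid, 11.14 to 11.44 in control and 10.88 to 11.18 in valproic acid. None of its members was at its lowest value in a retinoic acid library, and 1 was in a valproic acid library. anxa1c, an annexin of that layer, differed by 1.13 (SE 0.12), the keratin krt91 by 1.28 (SE 0.16), klf2b by 0.70 (SE 0.07) and PPL, periplakin, by 0.60 (SE 0.10). The other 16 were not called, among them the abundant keratins krt4 (-0.03, SE 0.08), krt5 (-0.01, SE 0.10) and krt8 (0.04, SE 0.10). Of 18 genes of the yolk syncytial layer, which feeds the embryo, 8 were higher in retinoic acid (44.4%, against 17.1% of all genes) and 0 higher in valproic acid. List means were 9.51 to 9.94 in retinoic acid, 9.25 to 10.02 in control and 8.84 to 9.69 in valproic acid. The apolipoprotein genes apoa1b, apoa1a and apobb.1 differed by 0.95 (SE 0.13), 1.05 (SE 0.17) and 1.01 (SE 0.21). The other 10 genes of that layer were not called, among them apoc1 (-0.09, SE 0.12), MTTP (0.14, SE 0.14) and HNF4A (0.09, SE 0.11). In RNA of whole embryos, fewer cells of a type and less RNA per cell cannot be told apart, and the part of these layers in the other differences was not tested.

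Of 25 maternal transcripts, which embryos clear in this window, 12% were called, against 35.4% of all genes. Of these, 1 was higher in retinoic acid (hook2, a cytoskeletal linker, 1.08, SE 0.41, adjusted p = 0.037) and 2 higher in valproic acid, with TRIM36, a ubiquitin ligase of the egg, at -1.03 (SE 0.16), and list means of 7.48 to 8.25 in retinoic acid and 7.19 to 8.02 in valproic acid. The median difference of the list changed sign between sets, at 0.39, 0.10, -0.18 and 0.06 in titles 1-12, 13-24, 25-36 and 37-48. In titles 1-12 and 25-36 the list means were 7.26 and 7.97 in valproic acid and 7.63 and 7.78 in retinoic acid. The call of hook2 was lost without any 1 of retinoic acid replicates 1, 3, 5 and 8 or valproic acid replicates 1, 2, 4 and 5. Of 20 early zygotic and pluripotency genes, 6 were higher in retinoic acid (30%, against 17.1% of all genes) and 7 higher in valproic acid (35%, against 18.4%). The latter held pou5f3 (-0.50, SE 0.12) and nanog (-0.53, SE 0.14), both activators of the zygotic genome. Neither was called against control, in retinoic acid (adjusted p = 0.675 and 0.761) or in valproic acid (adjusted p = 0.0670 and 0.0811). The 6 held sox19b (0.80, SE 0.07), which had the smallest adjusted p of the list, and klf2a (0.86, SE 0.16). Of 45 cell cycle genes, 33.3% were called, near the 35.4% of all genes. Higher in retinoic acid were 11 (24.4%, against 17.1% of all genes) and higher in valproic acid 4 (8.9%, against 18.4%). MCM7, of the replication helicase (0.35, SE 0.06), and E2F1, which drives S phase genes (1.06, SE 0.19), were among the 11. Germ cell genes were called in 3 of 12 (25%, against 35.4% of all genes), TDRD1 at 0.81 (SE 0.23) and gra at -0.56 (SE 0.19, a call lost without retinoic acid replicate 1) among them. Of 5 measured markers of tissues not yet formed, 1 was called (20%), the troponin TNNT3 (1.52, SE 0.23). The part of stage in the patterning differences was not tested.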

How the data were processed

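Per the labels' protocols, whole-embryo RNA was taken up in Qiazol and its polyadenylated part went into strand-specific libraries (NEBNext Ultra II Directional). The authors deposited normalized log2 expression values of 15710 Ensembl genes in 32 libraries. Per the submitters' processing notes, HTSeq 0.11.0, limma and the build GRCz11 were used. No aligner, annotation release, filter or normalization step is given in the sources here. Values ran from 0 to 19.4, and values of the same high rank differed by at most 0.03 between libraries, while the lowest values differed more. With upper values so alike, a shift of most genes in 1 direction, or of total RNA, would not be seen, and depth is unknown. No counts, intervals on counts or floors are given.

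The values were fitted without filter or pseudocount in limma 3.58.1 (R 4.3.3), with a mean per group and the set of 12 title numbers as a block over all 32 libraries, an intensity trend and Benjamini-Hochberg adjustment over 15710 genes. Control and folic acid libraries entered the fit for the spread and the set effects. Intervals are 95%. The script was tested on simulated data with 200 changed genes.

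Symbols were found for 15016 identifiers, and 1503 share a symbol, so identifiers are given where 2 entries share a name. Symbols in capitals are those of the name table. Reads of near-identical paralogs may be split or lost in counting. Of 1071 genes in 29 lists, 210 were not matched, and 201 were matched without the paralog letter. Named genes are the 12 largest each way, 8 each way with control between in all sets, up to 3 called per list and a fixed few (not all are printed, and a few are not reported here), and other members are examples chosen after their values were seen. The members and lists were chosen with earlier results of these data known. Alternatives were no set block, the 16 libraries alone, no trend, median centring, a mean of at least 5, means of 2 libraries, and leaving out each library or set. A fit without 2 libraries together and the test between sets were added after seeing the data.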

Additional observations from a re-analysis of the deposited data

Results flagged for a closer look

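The difference between the teratogens varied with the set of title numbers in 4 genes (limma F test, adjusted over all genes). For meis2b the adjusted p was 0.0066, for hoxb1b 0.0066 and for hoxc3a 0.0267, all with the same sign in the 4 sets and the smallest difference in titles 1-12. For ITGA11, an integrin subunit named here after its values were seen, it was 0.0401, with differences of -0.38, -0.76, -1.62 and 2.12 in titles 1-12, 13-24, 25-36 and 37-48, a change of sign in the last set, and -0.16 over all sets (SE 0.32, adjusted p = 0.74).

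Single libraries stood apart from the other 7 of their group in some of the genes reported. Each group was tested by the gap to the nearest library divided by the range, against a critical value of 0.526, and chance flags about 1 in 20 groups. Of 362 groups tested, 18 were flagged, 9 of them for retinoic acid replicate 3. The gap was 0.703 of the range in fgfr4, 0.530 in TBXT, 0.548 in EPC1, 0.725 in kansl1a, 0.552 and 0.663 in the 2 CREBBP entries, 0.650 in ldlrb and 0.598 in E2F1, where that library was lowest, and 0.560 in krt91, where it was highest. Other retinoic acid flags were replicate 4 in MCM7 (0.644), replicate 6 in ISL1 (0.592) and replicate 8 in SLC44A2 (0.572). Among valproic acid libraries they were replicate 1 in gabrb1 (0.579), replicate 3 in szl (0.696) and CNN3 (0.553), replicate 6 in OTX1 (0.541) and her8a (0.558) and replicate 7 in ATP6V1B2 (0.559). None of these genes gained or lost its call when any 1 library was left out.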

How the results depend on the processing

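Leaving out 1 library at a time gave 5145 to 5773 called genes, 2474 to 2809 higher in retinoic acid and 2666 to 2964 higher in valproic acid, and 619 to 682 and 677 to 716 at least 2-fold apart. Single sets, with 2 libraries a group, gave fewer: 2280, 312, 1836 and 1156 called in titles 1-12, 13-24, 25-36 and 37-48, of which 1141, 224, 1020 and 628 higher in retinoic acid and 1139, 88, 816 and 528 higher in valproic acid. At least 2-fold higher in retinoic acid were 347, 214, 519 and 312, and in valproic acid 453, 86, 301 and 250 in the 4 sets. Titles 13-24 hold retinoic acid replicate 3 and valproic acid replicate 4. A mean level of at least 5 gave 379 and 321 genes at least 2-fold apart. It also moved list medians to 0.84 for retinoic acid metabolism, 0.22 for neurogenesis, 0.26 for FGF, 0.0637 for the organizer, -0.48 for the synaptic list and 0.56 for markers of tissues not yet formed, since fewer genes enter each list. Without the set block 4718 genes were called.

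Of 181 reported genes followed over 27 settings other than single sets, 166 kept their call and sign in all, and 10 lost or gained a call in at least 1 (ELAVL3, INSM1, tbxta, chrd, hdac7b, nanog, gra, hook2, ITGA11 and a HOXC6 entry). The others changed sign without a call. Within single sets the sign turned in lhx5 (0.0339), ELAVL3 (-0.0828), tbxta (0.0463) and chrd (0.0450) in titles 1-12, INSM1 (-0.14) in 37-48 and HOXC6 (-0.86) in 25-36, and the cause was not tested. Over the same settings 1 to 4 retinoic acid metabolism, 0 to 2 hindbrain, 2 to 6 BMP, 2 to 6 FGF, 2 to 4 anterior and 0 to 3 organizer genes were higher in valproic acid, as were 4 to 10 mesendoderm, 6 to 12 actin and 3 to 8 early zygotic genes. The number higher in valproic acid was 1, 3 and 0 throughout in the Wnt, acetyltransferase and Hox lists, and the number higher in retinoic acid ran from 16 to 28 in acetyltransferase and from 11 to 25 in Hox genes. No paired analysis was possible because the labels give no replicate numbers shared between groups, so the set took that place. Depth is unknown, and the number of libraries limits the precision.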
